A study of Homo sapiens with 2 samples.

Results

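The EGF-family growth factors, their ERBB receptors and the feedback inhibitor ERRFI1 were compared between 2 lines of MKN1 cells, a line established from a human gastric cancer. The first line overexpressed RHOA Y42C and the second RHOA wild-type, and each came from MKN1 cells given a pBABE plasmid with that insert and selected with puromycin. RHOA is a small GTPase of the actin cytoskeleton, and Y42C is a tyrosine-to-cysteine substitution of it. There was 1 array per line, and no array of untransfected or empty-vector cells was analysed here. No difference below therefore has a replicate check, and the comparison cannot show in which line a level changed. The labels do not say whether a line was a clone or a pool. The members were the probe sets annotated with 1 of 10 gene symbols: the receptors EGFR, ERBB2 and ERBB3, the ligands AREG, EREG, HBEGF, TGFA, BTC and NRG1, and ERRFI1. Of these 10 genes, 8 had 1 probe set each, among 17687 named genes in all. ERBB2 and AREG carried no probe set name in the annotation used here and were not analysed.

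EGF-family ligands are made as membrane-anchored precursors, and proteases of the ADAM family release the soluble factor. Binding of a ligand lets ERBB receptors pair and phosphorylate each other, and adaptor proteins on the phosphorylated tails then start RAS-MAPK and PI3K-AKT signalling. EGFR binds most of the family, ERBB2 has no known ligand of its own, and ERBB3 binds neuregulins and has a weak kinase, so that it signals through a partner receptor. Tumours of the stomach can carry amplified EGFR or ERBB2 or mutated ERBB3.

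In the RHOA Y42C array, HBEGF and ERRFI1 were 2.83-fold and 2.23-fold higher than in the RHOA wild-type array, and ERBB3 was 4.11-fold lower. EGFR, EREG and TGFA lay within 2-fold between the lines. BTC and NRG1 were near background on both arrays. These folds take the deposited values as log2 signal, a scale inferred from their range.

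The sequences before the start sites of HBEGF and ERRFI1 are shown because these members passed 2-fold upward in the Y42C array, and that of EREG because it is a ligand whose signal hardly differed. For ERBB3, the member that passed 2-fold downward, no promoter window was available here. Each line holds the 250 bases just upstream of the RefSeq transcription start, 5′ to 3′ on the strand of the gene, from RefSeq's GRCh38.p14 promoter table. HBEGF lies on the minus strand at chr5:140346604-140346853, ERRFI1 on the minus strand at chr1:8026310-8026559 and EREG on the plus strand at chr4:74364895-74365144. Capitals mark matches to the motifs described after them.
HBEGF: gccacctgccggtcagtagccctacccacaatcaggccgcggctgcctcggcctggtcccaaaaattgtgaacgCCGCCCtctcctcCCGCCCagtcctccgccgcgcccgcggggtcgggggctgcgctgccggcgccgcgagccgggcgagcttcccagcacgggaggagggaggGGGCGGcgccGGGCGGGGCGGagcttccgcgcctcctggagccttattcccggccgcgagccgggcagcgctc
ERRFI1: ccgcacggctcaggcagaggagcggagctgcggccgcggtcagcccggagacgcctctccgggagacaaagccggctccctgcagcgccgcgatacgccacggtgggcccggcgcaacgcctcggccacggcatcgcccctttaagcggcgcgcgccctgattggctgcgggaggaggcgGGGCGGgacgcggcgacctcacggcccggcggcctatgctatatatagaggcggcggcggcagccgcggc
EREG: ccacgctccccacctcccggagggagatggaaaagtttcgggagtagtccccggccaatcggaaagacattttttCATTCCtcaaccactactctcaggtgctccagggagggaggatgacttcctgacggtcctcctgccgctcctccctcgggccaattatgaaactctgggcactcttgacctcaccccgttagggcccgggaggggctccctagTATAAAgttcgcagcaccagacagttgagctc

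The motifs searched, on both strands, were TGANTCA of AP-1 factors, TGACGTCA of the cAMP response element, GGAATG of TEAD factors, the CArG box of SRF, the TATA box TATAAA and the GC box GGGCGG, the last added after the sequences were read. In all 35116 promoter windows of the table these were found in 6.57%, 1.65%, 11.9%, 1.16%, 10.7% and 42.6%. The HBEGF window held 5 GC boxes, of which the pair nearest the start overlaps by 1 base, and the ERRFI1 window held 1. Neither contained a match to the letters searched for the other 5 motifs. The ERRFI1 window does hold the letters TATATATA close to its start site, which a search for TATAAA does not count. The EREG window held 1 TEAD match on the minus strand, 175 bases upstream, and 1 TATA box 32 bases upstream, but no GC box. The windows of HBEGF and ERRFI1 were 76.4% and 75.2% G and C, against 58% for EREG and a median of 58% over the table. TGFA and EGFR, which lay within 2-fold, had 75.6% and 73.6% in their first window and 64% and 38.8% in their second. GC boxes are more frequent in sequence rich in G and C. EGFR has 2 windows in the table. The first held 2 GC boxes, and the second held 2 AP-1 matches, 1 TEAD match and 2 TATA boxes. Of the 2 windows of TGFA the first held 3 GC boxes and the second no match, and the BTC window held no match. The AREG window held 1 cAMP response element, 1 TATA box and 1 GC box, and the ERBB2 window 1 AP-1 match. Neither of these genes was analysed on the arrays. A match describes the letters in the window and is not a measured binding site.

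The 2 arrays gave values for 21448 probe sets between 2.23 and 18.16. Olfactory receptor genes (349 of them) served as background, and the 95th percentile of their signal, 5.14 on the Y42C array and 5.17 on the wild-type array, was set as the minimum. The 11802 genes that reached it on either array were kept. RHOA itself had a signal of 16.30 in the Y42C array and 16.47 in the wild-type array, a value that does not separate mutant from wild-type RNA. Of 8 epithelial markers 7 were above the minimum, among them EPCAM at 13.53 and 13.30 and KRT8 at 17.94 and 17.96, in the Y42C and wild-type arrays. CDH1, the epithelial cadherin, was below it on both arrays (3.86 and 3.92), and CLDN7, a tight junction claudin, was 2.46-fold lower (9.31 and 10.61). The epithelial list had a median difference of 0.07. Of 4 mesenchymal markers named here 3 were above the minimum, all with negative differences within 2-fold: VIM at -0.72, ZEB1 at -0.92 and COL1A1 at -0.21. All 4 leukocyte markers named here reached the minimum on at least 1 array. PTPRC measured 5.39 in the Y42C array and 4.61 in the wild-type array, CD3E 5.67 and 4.70, and CD68 10.15 and 10.66. CD14, at 5.67 and 7.45, was 3.43-fold lower in the Y42C array. Of 3 endothelial markers 2 were above the minimum, PECAM1 (6.05 and 6.12) and VWF (6.88 and 6.08). The part of these markers in the results was not tested.

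Of the receptors, EGFR hardly differed between the lines. It measured 10.73 in the Y42C array and 10.69 in the wild-type array, a 1.03-fold difference. ERBB3, the neuregulin receptor, measured 7.50 in the Y42C array and 9.54 in the wild-type array. The difference of -2.04 was the most negative among the members, and both values lay well above the minimum. Of 11802 genes above the minimum, 63 (0.534%) had a difference at least as negative. Among the 590 genes of its signal level the median difference was -0.14 with a scaled median absolute deviation of 0.764, so ERBB3 lay 2.49 such spreads below that median. ERBB4, the other neuregulin receptor, is no member but completes the family. Its signal was 7.17 in the Y42C array and 6.80 in the wild-type array, a 1.29-fold difference in the opposite direction to ERBB3.

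Of the ligands, HBEGF, the heparin-binding EGF-like growth factor, binds EGFR and ERBB4. It measured 10.05 in the Y42C array and 8.55 in the wild-type array, a difference of 1.5. Of 11802 genes, 317 (2.69%) had a difference at least as positive, and at its signal level HBEGF lay 1.99 spreads above the median of 590 genes. TGFA, a ligand of EGFR, measured 8.22 in the Y42C array and 7.74 in the wild-type array. Its 1.39-fold difference did not pass 2-fold, and 21.7% of genes differed at least as far upward. EREG, epiregulin, which binds EGFR and ERBB4, measured 7.13 in the Y42C array and 7.06 in the wild-type array. That 1.05-fold difference was exceeded or equalled by 41.7% of genes. The 3 ligands above the minimum were all higher in the Y42C array, with a median difference of 0.48, but HBEGF alone passed 2-fold. Over all kept genes 45.2% were higher. EREG differed by 0.07 and TGFA by 0.48, beside an SD of 0.440 over the olfactory receptor genes. Among genes of their own signal level, EREG lay 0.25 and TGFA 0.91 spreads above the median.

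BTC, betacellulin, measured 5.05 in the Y42C array and 4.66 in the wild-type array, and NRG1, a neuregulin that ERBB3 binds, 3.54 in the Y42C array and 3.30 in the wild-type array. All 4 values were below the minimum, so no fold is given. With 1 probe set for a gene of many isoforms, a low NRG1 signal covers only the transcripts that this probe set detects.

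ERRFI1, also known as MIG6, binds the kinase domain of active EGFR and blocks it, and is induced by EGFR signalling as a feedback. It measured 15.65 in the Y42C array and 14.49 in the wild-type array, a difference of 1.16. Both values fall in the brightest of 20 level bins, where the spread between the arrays was smallest. There the scaled median absolute deviation was 0.474 and 5.08% of 591 genes passed 2-fold upward, and ERRFI1 lay 2.49 spreads above the bin median. Over all levels 651 genes (5.52%) had a difference at least as positive. The signal of EGFR, on which both HBEGF and ERRFI1 act, differed by 0.04.

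**Figure D1:**
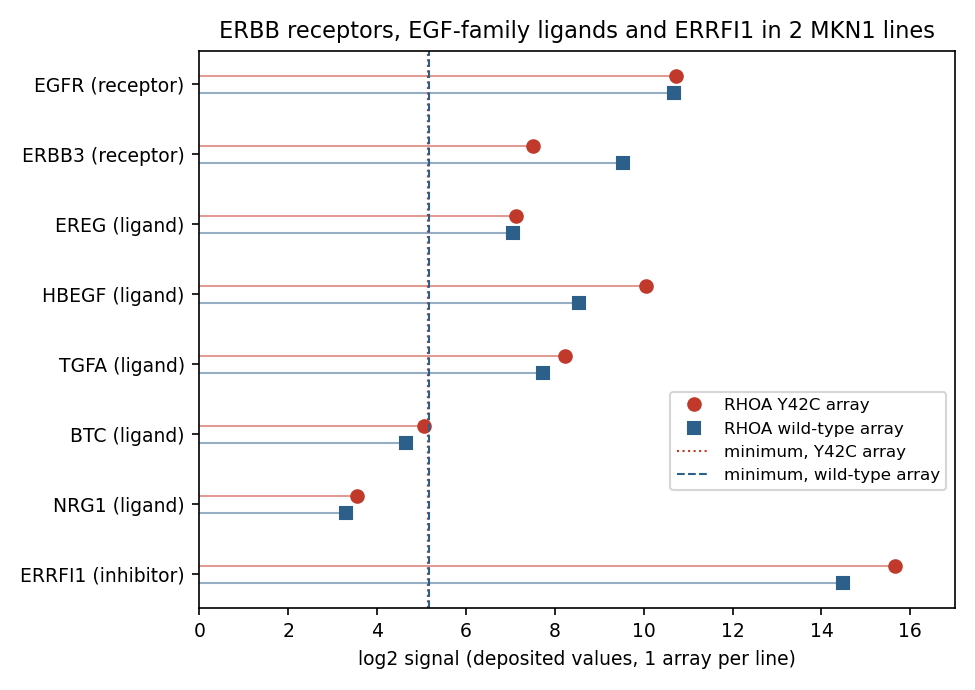
Log2 signal of the 8 measured members on the horizontal axis, with circles for the RHOA Y42C array and squares for the RHOA wild-type array (1 array each) and vertical lines for the minimum of each array. The circle lies right of the square for HBEGF (10.05 and 8.55) and ERRFI1 (15.65 and 14.49), and left of it for ERBB3 (7.50 and 9.54). Levels of different genes are read by different probes and are not compared.

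Of the 8 measured members, 6 were above the minimum, each on both arrays, and of these 2 passed 2-fold upward in the Y42C array (HBEGF and ERRFI1) and 1 downward (ERBB3). Over all 11802 kept genes, 7.46% passed 2-fold upward and 9.8% downward. Centring the arrays on their medians turned that split to 9.74% higher and 7.77% lower, and left the members' counts as they were. The 6 members had a median difference of 0.28, against -0.07 over all genes, and ranged between -2.04 for ERBB3 and 1.5 for HBEGF. The SD of the difference was 0.768 over all genes and 0.440 over the olfactory receptor genes, of which 4.30% passed 2-fold in either direction. With 6 genes chosen with earlier results of these arrays known, the counts are a description of the members.

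**Figure D2:**
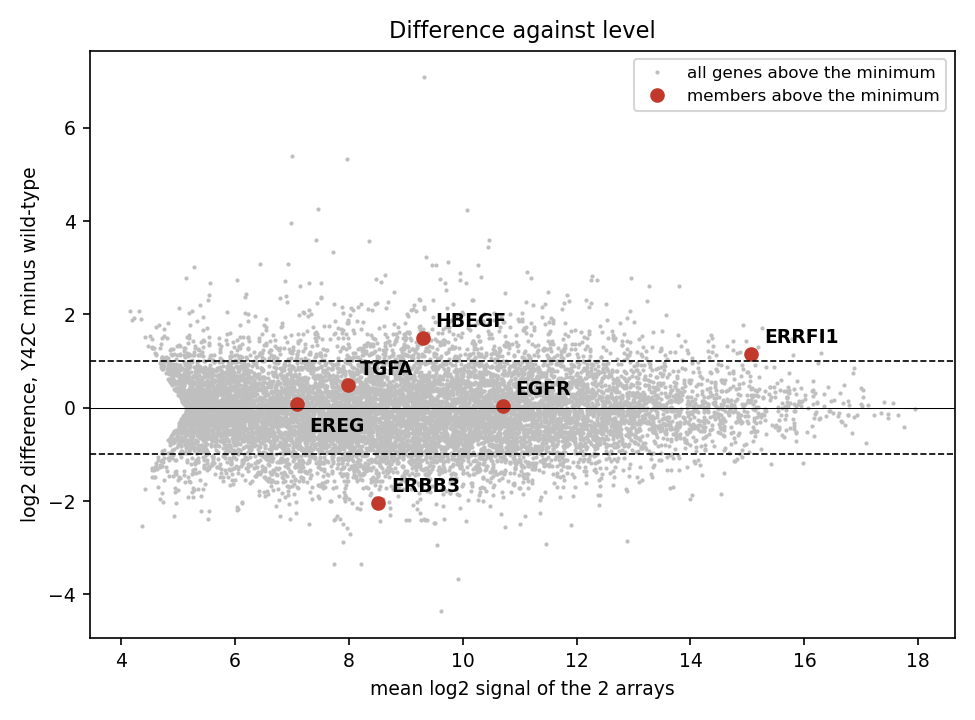
Log2 difference (RHOA Y42C minus RHOA wild-type) on the vertical axis against the mean log2 signal of the 2 arrays for 11802 genes above the minimum (grey) and the 6 members among them (red); dashed lines mark 2-fold. ERBB3 lies at -2.04, HBEGF at 1.5 and ERRFI1 at 1.16, while EGFR, EREG and TGFA lie between the dashed lines.

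None of the remaining EGF-family ligands was called past 2-fold. EPGN, epigen, measured 5.90 in the Y42C array and 5.29 in the wild-type array. NRG2, a neuregulin, measured 6.03 in the Y42C array and 6.73 in the wild-type array. EGF was above the minimum on the Y42C array only (5.25, against 5.03 in the wild-type array), which makes it at least 1.06-fold higher. NRG4 was above it on the wild-type array only (4.78 in the Y42C array and 5.46 in the wild-type array), which makes it at least 1.25-fold lower, and NRG3 was below it on both (3.47 and 3.32). Of 7 family ligands above the minimum, 5 were higher and 2 lower in the Y42C array, against 45.2% higher and 54.2% lower over all kept genes. Their median difference was 0.22, and it moved to 0.08 with low values raised to the minimum and to 0.48 with the array median as the minimum.

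EREG, AREG and BTC lie in 1 cluster on chromosome 4, with EPGN as the nearest measured gene on the side of EREG. Around them, MTHFD2L, a mitochondrial folate enzyme, measured 6.07 in the Y42C array and 6.51 in the wild-type array, and CXCL2, a chemokine, was below the minimum on both (4.88 and 4.38). On the side of BTC, PARM1 was also below it (4.17 and 4.14), RCHY1, a ubiquitin ligase, measured 8.15 in the Y42C array and 7.59 in the wild-type array, and THAP6 8.01 and 8.81. No gene measured in or beside the cluster passed 2-fold. Of the 6 measured genes nearest ERBB2 on chromosome 17, PNMT, which makes adrenaline, had 7.39 in the Y42C array and 6.15 in the wild-type array, 2.36-fold higher. The other 5 lay within 2-fold, at differences of 0.08 for TCAP, -0.81 for PGAP3, -0.65 for MIEN1, -0.57 for GRB7 and -0.40 for IKZF3.

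Of 14 genes above the minimum in the list for receptor inhibition and degradation, 12 did not pass 2-fold, ERRFI1 passed 2-fold upward and LRIG3 downward. Whether each listed gene inhibits the receptors in these cells was not tested. That is 7.14% in each direction, against 7.46% upward and 9.8% downward over all kept genes. LRIG3, of the leucine-rich repeat family of ERBB regulators, measured 7.81 in the Y42C array and 9.23 in the wild-type array, 2.68-fold lower. Its relative LRIG1, which promotes receptor degradation, was at least 1.5-fold lower (5.11 in the Y42C array, below the minimum, and 5.72 in the wild-type array), and LRIG2 lay at 0.57. The ubiquitin ligases CBL and CBLB lay at 0.31 and 0.68, and the list had a median of 0.07.

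Genes of ligand shedding and transport had 7 of 11 members above the minimum with a negative difference. Over all kept genes 54.2% of differences were negative, and 7 of 11 is 63.6%. In this list 2 genes (18.2%) passed 2-fold downward, against 9.8% over all kept genes, and 0 upward, against 7.46%, and the median was -0.37. CD9, a tetraspanin that binds the membrane-anchored form of HB-EGF, measured 13.89 in the Y42C array and 15.28 in the wild-type array, 2.62-fold lower. ADAM15 was 2.07-fold lower (8.71 and 9.76), and lay within 2-fold after centring (-0.94), quantile normalization (-0.96) or removal of a trend on level (-0.93). ADAM17, the main sheddase of HBEGF, TGFA and AREG, measured 11.60 in the Y42C array and 12.35 in the wild-type array, a difference of -0.75. ADAM10, which releases EGF and BTC, lay at -0.27. RHBDF1 and RHBDF2, which carry ADAM17 to the cell surface, lay at 0.30 and 0.41, and TIMP3, an inhibitor of ADAM17, at 0.91.

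Adaptors and proximal signalling genes had 14 of 20 members (70%) higher in the Y42C array, against 45.2% of all kept genes, none of them by 2-fold, and a median of 0.25. EPS8, a receptor substrate that acts on actin, was 2.45-fold lower (7.73 in the Y42C array and 9.02 in the wild-type array). It was the 1 gene of the list (5%) past 2-fold downward. Over all kept genes 7.46% passed 2-fold upward and 9.8% downward. At the other end, PIK3R1, the regulatory subunit of PI3K, lay at 0.98 and the adaptor SHC1 at 0.91, and both passed 2-fold after centring (1.09 and 1.02). GRB2, the adaptor that brings SOS to the receptors, lay at -0.63, and SOS1 at 0.66.

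Of 17 endocytosis and sorting genes, 1 (5.88%) passed 2-fold in each direction, and the median was -0.08. Over all kept genes the shares were 7.46% upward and 9.8% downward. AP2A1, a subunit of the AP-2 clathrin adaptor, had 9.49 in the Y42C array and 8.39 in the wild-type array, 2.14-fold higher. HGS, which sorts ubiquitinated receptors to lysosomes, was 2.11-fold lower (8.81 and 9.89), and lay at -0.97 after centring. Among 8 receptor partners and chaperones, 1 (12.5%) passed 2-fold upward and 0 downward. It was ITGB4, an integrin subunit that associates with ERBB receptors. ITGB4 had 9.40 in the Y42C array and 8.06 in the wild-type array, 2.53-fold higher. HSP90AA1, a chaperone of ERBB2, lay at -0.90. The list's median was 0.24.

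Over the 7 lists together 80 genes were kept, of which 4 passed 2-fold upward and 6 downward. Without the members the counts were 2 (2.70%) and 5 (6.76%) of 74 genes, below the shares of 7.46% and 9.8% over all kept genes.

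**Figure D3:**
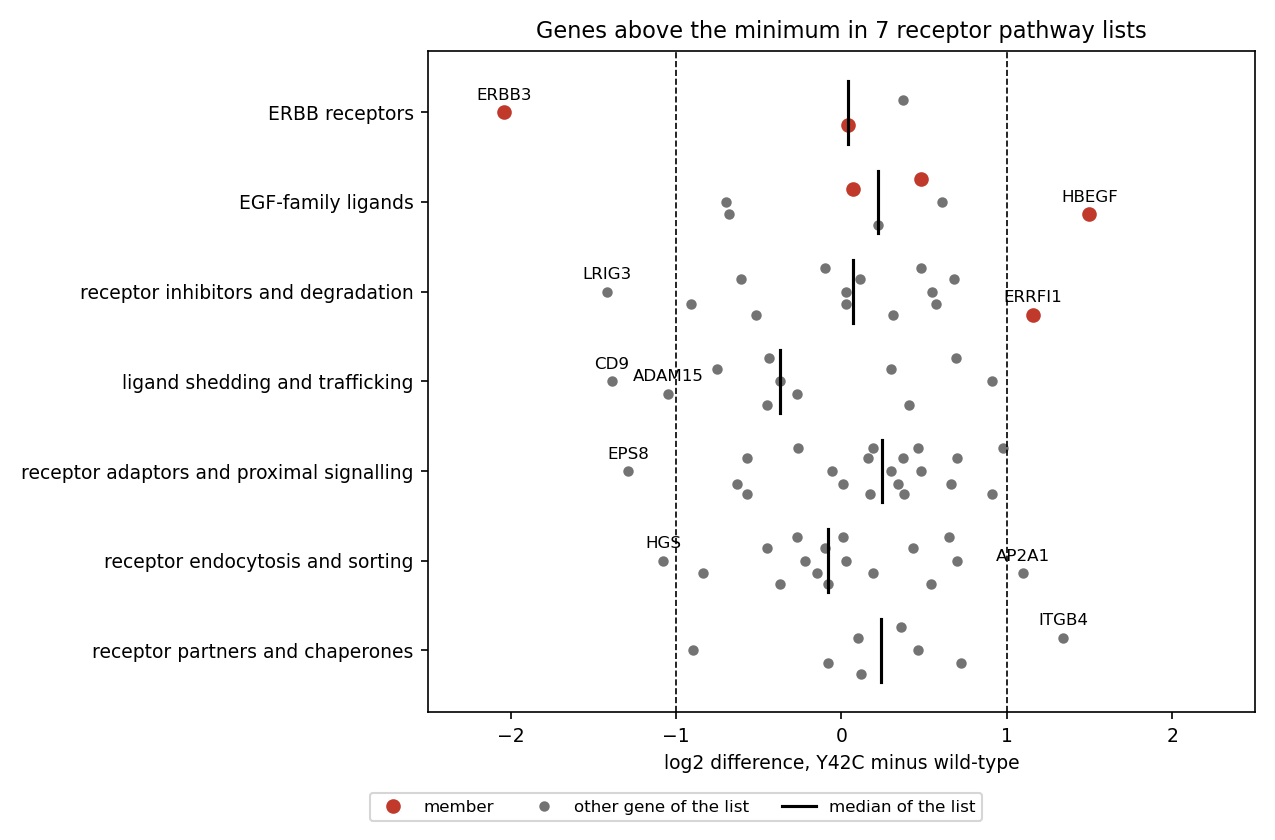
Log2 difference (RHOA Y42C minus RHOA wild-type) on the horizontal axis for each gene above the minimum in the 7 receptor pathway lists, with the members in red, other genes in grey, each list's median as a black bar and 2-fold as dashed lines. Genes past 2-fold are named; ERBB3 lies farthest left at -2.04 and HBEGF farthest right at 1.5. EGF, NRG4 and LRIG1 are drawn at their deposited differences although 1 array was below the minimum.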

How the data were processed

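Total RNA of 2 MKN1 lines was measured on 1 Affymetrix array each, from biotinylated cRNA, per the labels' protocols. The authors processed the arrays with Affymetrix Expression Console, per the submitters' processing notes. Not given in the sources used here are its version, the background correction, the normalization and the log base. The deposited values were taken as log2 signal from their range (2.23 to 18.16) and used unchanged. The platform annotation named 17709 of 21448 probe sets with 1 symbol, 0 with several, and left 3739 unnamed here. Probe sets of 1 gene were averaged (20 of 17687 genes). Arrays give no read depth, and their number limits the precision.

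Differences are Y42C minus wild-type, with no test. A fold is a lower bound where 1 array was below its minimum. Level bins hold equal numbers of genes ordered by mean signal, and their spread is the scaled median absolute deviation of the differences. The members and lists were chosen with earlier results of these data known. Named were all members, the other family ligands and receptors, list genes past 2-fold and measured neighbours of 2 loci. Further genes of the lists were chosen for naming after seeing their values. With 2 arrays no gene was named for likeness of pattern. The code was tested on simulated data, where 200 of 200 genes set 4-fold apart among 11802 were recovered. The simulated spread was set well below that between the 2 arrays. Recovery therefore checks the code and does not measure how reliable a 2-fold call is here. Promoter windows of 8 of the 10 members were used. ERBB3 had no window, and member windows on chromosome 8, where NRG1 lies, were left out. Computing was done in Python 3.11.15 with NumPy 2.4.6, pandas 2.3.3 and statsmodels 0.14.6, and drawing with matplotlib 3.10.9.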

Additional observations from a re-analysis of the deposited data

How the results depend on the processing

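The alternatives were subtraction of a lowess trend against signal (span 0.3), centring on the median, quantile normalization, the array median or nothing as the minimum, addition of 16 on the linear scale, values below the minimum set to it, and the brightest probe set. Centring moved the median of all genes from -0.07 to 0.04. Under these 8 alternatives ERBB3 lay between -2.04 and -1.91, HBEGF between 1.46 and 1.62 and ERRFI1 between 1.13 and 1.27, all past 2-fold. EGFR lay between 0.04 and 0.15, EREG between 0.06 and 0.20 and TGFA between 0.45 and 0.61. With 1 probe set each and both values above the minimum, these members could not differ under some of the alternatives. Those were another or no minimum, values below the minimum set to it, and the brightest probe set. With a 3-fold threshold 0 members were higher, and 1, ERBB3, was lower. With 1.5-fold the counts were 2 and 1. Over the 7 pathway lists, the genes past 2-fold upward numbered 7 after centring, against 4, the added genes being TIMP3, SHC1 and PIK3R1 at 1.02, 1.02 and 1.09. By list, the count past 2-fold downward was 1 in place of 2 for shedding and 0 in place of 1 for endocytosis after centring, quantile normalization or trend removal, and the count upward for adaptors was 2, 1 and 2 in place of 0 under these. For shedding the count upward was 1 in place of 0 after centring. The median of the endocytosis list changed sign under 2 alternatives and reached 0.03, and that of the inhibitor list lay between 0.03 and 0.18. Genes past 2-fold downward over these lists numbered 4 to 6, against 6. A recomputed count was taken as kept when within 1.5 times the reported one. A median was kept when it moved by less than 0.440, the SD of the olfactory receptor genes. For the difference of a member, no change of a 2-fold call was required as well. The median of the receptor members, -1, reached -0.88 and so was kept although it came within 2-fold. By that rule 264 of 276 recomputed values were kept, 12 moved, and 0 of the called values changed sign. The kept values include those that could not change under an alternative. The 0.440 allowed for a median exceeds most of the reported medians in size, so a kept median is a weak check. No paired analysis was possible because each line has 1 array. With 1 array per line, the line and its array cannot be told apart.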
